A study of Mus musculus with 16 samples.

Results

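The genes described here are 9 genes of antigen presentation by major histocompatibility complex (MHC) class II, chosen by name from the deposited table of 51912 genes, with earlier results of these data known. They are H2-Aa, H2-Ab1 and H2-Eb1, which encode class II chains, Cd74, H2-DMa and H2-DMb1, which act on the way to the peptide-loaded molecule, Ciita, the regulator of the class II genes, and Cd80 and Cd86, which encode co-stimulatory ligands. All 9 were found in the table. They were chosen with counts of these same libraries in view, so the differences and tests below describe these libraries and are not independent evidence. Bulk mRNA-Seq was performed on group 2 innate lymphoid cells (ILC2s) from the lungs of WT and Pac1-/- mice, which lack PAC1, a phosphatase encoded by Dusp2. The mice were 6 to 8 weeks old, and the study's methods describe expansion of sorted lung ILC2s for 1 to 2 weeks in IL-2 at 50 ng/mL and IL-7 at 100 ng/mL. Cells of each genotype were cultured for 4 hours with IL-7 (100 ng/mL) alone, with IL-7 and IL-33 (100 ng/mL), or with IL-7, IL-33 and either calcitonin gene-related peptide (CGRP, 500 ng/mL) or neuromedin U (NMU, 500 ng/mL). These 4 conditions are named below by the last agent added, and all 8 groups therefore received IL-7. About 500 cells were sorted into lysis buffer per library, and each group has 2 libraries, 16 in all. The sources do not say that the 2 libraries of a group came from separate mice or cultures, so p-values measure the spread between libraries, which may be technical. The Pac1-/- cells lacked PAC1 before the culture as well as during the 4 hours, and effects of the former and the latter cannot be told apart.

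MHC class II is a pair of chains, α and β, that carries peptides from the endosome to the cell surface, where CD4+ T cells read them. CD74, the invariant chain, holds the empty groove closed, and the H2-DM pair exchanges the remaining CD74 fragment for peptide. CIITA is the coactivator that brings these genes on together through the X and Y boxes of their promoters, and CD80 and CD86 give the second signal through CD28. B cells, dendritic cells and macrophages express class II strongly, and lung ILC2s are known to carry it at a low level.

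Promoter sequences are given for H2-Aa and H2-Eb1, an α and a β chain gene for which a promoter was found. Both are the 150 bases before the annotated start, from RefSeq on GRCm38.p6, written 5′ to 3′ on the strand of the gene. H2-Aa is at chr17:34287824-34287973 on the minus strand and H2-Eb1 at chr17:34305717-34305866 on the plus strand. Capitals mark the letters ATTGG of the Y box and, in H2-Eb1, a match to the X box core AGNNACNGA. Only matches on the strand shown are in capitals, and the H2-Eb1 sequence also holds a Y box match on the opposite strand, read here as ccaat.
H2-Aa: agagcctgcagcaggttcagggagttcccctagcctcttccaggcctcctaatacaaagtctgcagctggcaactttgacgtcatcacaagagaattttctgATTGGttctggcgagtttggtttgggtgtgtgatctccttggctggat
H2-Eb1: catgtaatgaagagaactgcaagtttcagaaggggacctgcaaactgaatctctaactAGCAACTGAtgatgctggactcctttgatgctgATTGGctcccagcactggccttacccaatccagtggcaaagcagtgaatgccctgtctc
The Y box letters began 48 bases before the start of H2-Aa and 59 bases before that of H2-Eb1. The X core letters searched were not in the H2-Aa window, which says nothing of binding there. Both motifs were searched on both strands of 250 bases before to 50 after each start, and they do not overlap each other in a counted pair. The X core letters were in 17.7% and the Y box letters in 37.4% of 32851 RefSeq promoters, and both on the same strand with 15 to 35 bases between them were in 0.244%. Promoters were found for 5 of the 9 genes, and H2-Eb1 and H2-DMb1 held the pair. Of the 22 other class II pathway genes listed below, 17 had a promoter in the table, and 1, H2-Eb2, held the pair.

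The genes lie on 3 chromosomes in the GENCODE M21 annotation of GRCm38. H2-Aa (chr17:34282744-34287823), H2-Ab1 (chr17:34257689-34269419), H2-Eb1 (chr17:34305867-34316674), H2-DMa (chr17:34119541-34139101) and H2-DMb1 (chr17:34153072-34160230) belong to the class II region of chromosome 17. Cd86 (chr16:36603869-36666081), Cd80 (chr16:38455561-38496335) and Ciita (chr16:10480059-10528418) are on chromosome 16, and Cd74 is at chr18:60803848-60812652. Of all 75-base windows in the exons of a gene, 15.8% in H2-DMb1 also occurred in H2-DMb2, 7.46% in H2-DMa in Brd2 and 0.765% in Ciita in Dexi. The counts of those 3 genes are uncertain to that extent, and the other 6 shared no window with another gene. H2-Eb1 is overlapped by the antisense gene Gm20513, and the strand setting of the counting is not given in the sources used here.

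The libraries held 6764992 to 15963357 counts, so 3 counts, the limit that a count of 0 allows, stood for 0.188 to 0.443 CPM (counts scaled to a library total of 1000000). Of 14 ILC2 marker genes, 13 were above 0 in every library, among them Il5, Ly6a and Ptprc, the 3 with the highest mean CPM, at 5125 to 24699, 1368 to 4609 and 970 to 2065 CPM. Gata3 at 503 to 1421 CPM and Il1rl1 at 476 to 1219 CPM, a transcription factor and the IL-33 receptor that define ILC2s, are named outside the rule for naming genes. Dusp2, the deleted gene, had counts in 2 of 8 WT libraries, up to 57 counts, and in none of 8 Pac1-/- libraries, so it checks the genotype labels only weakly. Markers of other cells were present too, and those of B cells and of macrophages and monocytes are given beside the class II values. In bulk libraries, fewer cells of a type and less RNA per cell cannot be told apart.

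Per kilobase of exon, Cd74 had the highest mean level, 31.2 CPM per kb over the 16 libraries, followed by H2-Aa at 21.2, H2-Ab1 at 15 and H2-Eb1 at 12. Cd86 at 2.06 and H2-DMa at 1.89 CPM per kb came next, and H2-DMb1 at 0.276, Ciita at 0.17 and Cd80 at 0.0109 CPM per kb were the lowest. Cd74 exceeded H2-Aa in 13 of 16 libraries, with a mean difference of 10 ± 15.3 CPM per kb (SD, n = 16). H2-Aa exceeded H2-Ab1 in 7 libraries and was below it in 8, so that these neighbours did not differ beyond their spread. H2-Ab1 exceeded H2-Eb1 in 12 libraries, by 2.99 ± 4.26 CPM per kb, and H2-Eb1 exceeded Cd86 in 13, by 9.95 ± 14.6. The order of Cd86 and H2-DMa rested on few libraries, since H2-DMa was the higher in 9 and Cd86 in 4. Every mean difference between neighbours was smaller than its SD over libraries. At the lower end H2-DMb1 was at 0 in 14 libraries, Ciita in 11 and Cd80 in 15, against 0 libraries for Cd74.

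**Figure D1:**
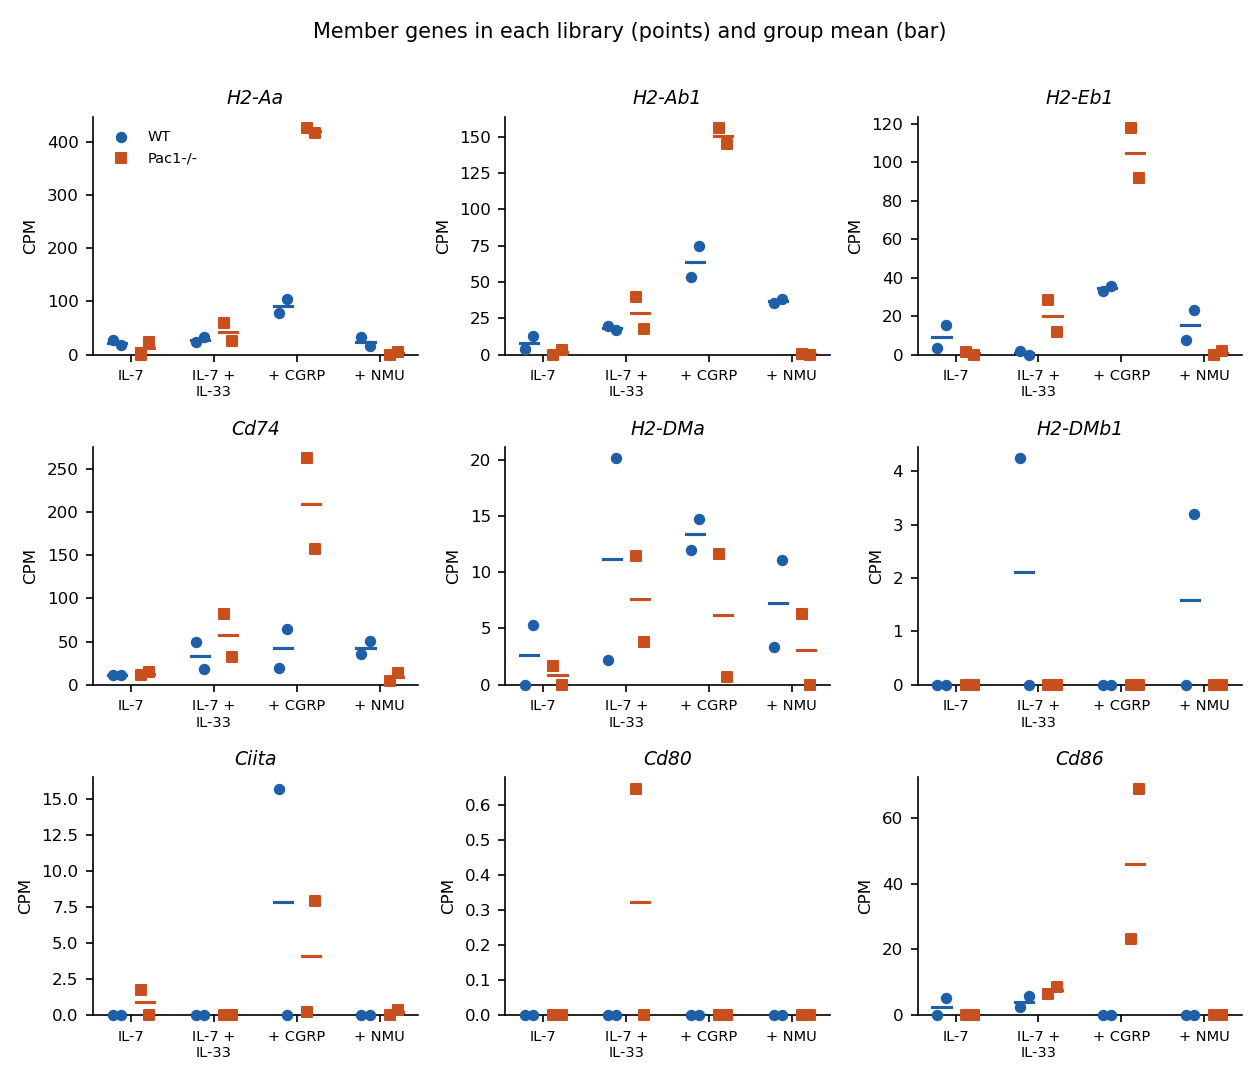
CPM of the 9 genes (vertical axis, linear from 0 and scaled separately in each panel) by condition (horizontal axis), with each library as a point, circles for WT and squares for Pac1-/-, and the mean of 2 libraries as a bar. The Pac1-/- CGRP libraries held the highest H2-Aa, H2-Ab1, H2-Eb1, Cd74 and Cd86, from 416 to 425 CPM for H2-Aa, while Cd80 reached 0.646 CPM in 1 library only.

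The α chain gene H2-Aa ranged from 0 to 425 CPM with a median of 26.2. It had 429 and 207 counts in the WT IL-7 libraries, 0 and 310 in Pac1-/- IL-7, 303 and 328 in WT IL-33, and 926 and 247 in Pac1-/- IL-33. With CGRP it had 958 and 1018 counts in WT and 4348 and 3471 in Pac1-/-, and with NMU 218 and 133 in WT and 1 and 62 in Pac1-/-. The 4 CGRP libraries were thus the highest by count, and the Pac1-/- libraries were above WT with CGRP and below it with NMU without overlap. The 2 Pac1-/- IL-7 libraries stood far apart, 1 with no count and 1 with 310.

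H2-Ab1, the partner β chain of H2-Aa, ranged from 0 to 156 CPM with a median of 18.5. Its counts were 66 and 140 in WT IL-7, 0 and 41 in Pac1-/- IL-7, 248 and 170 in WT IL-33, and 615 and 169 in Pac1-/- IL-33. With CGRP they were 660 and 727 in WT and 1592 and 1206 in Pac1-/-, and with NMU 242 and 298 in WT and 6 and 0 in Pac1-/-. As for H2-Aa, the CGRP libraries were the highest and the Pac1-/- NMU libraries were near 0. Per kilobase, H2-Aa was 0.302 to 5.11 times H2-Ab1 in the 13 libraries with at least 10 counts of each, with a median ratio of 1, so that 2 chains of 1 molecule were not held to a fixed ratio between libraries.

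H2-Eb1, another class II β chain gene, ranged from 0 to 118 CPM with a median of 9.69. It had 51 and 173 counts in WT IL-7, 14 and 0 in Pac1-/- IL-7, 26 and 0 in WT IL-33, and 437 and 113 in Pac1-/- IL-33. With CGRP it had 408 and 350 in WT and 1204 and 766 in Pac1-/-, and with NMU 52 and 182 in WT and 0 and 23 in Pac1-/-. WT IL-33, with 26 and 0 counts, was among the lowest groups.

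Cd74, the invariant chain, was detected in all 16 libraries, from 4.89 to 262 CPM. Its counts were 185 and 130 in WT IL-7, 129 and 188 in Pac1-/- IL-7, 625 and 184 in WT IL-33, and 1270 and 314 in Pac1-/- IL-33. With CGRP they were 245 and 634 in WT and 2681 and 1312 in Pac1-/-, and with NMU 242 and 394 in WT and 57 and 145 in Pac1-/-. Unlike the chain genes, its WT CGRP libraries overlapped with the IL-33 libraries, and the high values were those of Pac1-/- CGRP and of 1 Pac1-/- IL-33 library.

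H2-DMa, the α subunit of the peptide exchange factor, ranged from 0 to 20.1 CPM with a median of 4.56. It had 0 and 59 counts in WT IL-7, 20 and 0 in Pac1-/- IL-7, 28 and 205 in WT IL-33, and 177 and 37 in Pac1-/- IL-33. With CGRP it had 148 and 144 in WT and 119 and 6 in Pac1-/-, and with NMU 23 and 87 in WT and 73 and 0 in Pac1-/-. Except in WT CGRP, the 2 libraries of each group were far apart, and the Pac1-/- CGRP libraries, the highest for the chain genes, were not the highest here. Its partner H2-DMb1 had 54 counts in 1 WT IL-33 library, 25 in 1 WT NMU library and none in the other 14.

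Ciita had counts in 5 libraries, 194 in 1 WT CGRP library, 2 and 66 in Pac1-/- CGRP, 21 in 1 Pac1-/- IL-7 library and 4 in 1 Pac1-/- NMU library. It was at 0 in 11 libraries, including all 4 IL-33 libraries, in each of which H2-Aa had at least 247 counts. Detection of Ciita therefore did not follow the class II chains library by library, and the 15.7 CPM of its highest library stood against 0 in that library's replicate.

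Of the co-stimulatory ligands, Cd80 had 10 counts in 1 Pac1-/- IL-33 library and none elsewhere. Cd86 had 0 and 58 counts in WT IL-7, 0 in both Pac1-/- IL-7 libraries, 32 and 58 in WT IL-33, and 97 and 84 in Pac1-/- IL-33. With CGRP it had 0 in both WT libraries and 236 and 575 in Pac1-/-, and with NMU it was at 0 in all 4 libraries. The 4 IL-33 libraries were therefore all above the 4 NMU libraries, and with CGRP the genotypes did not overlap. The mean of 46 CPM in Pac1-/- CGRP, from libraries at 23.1 and 69 CPM, was at least 167-fold higher than the 0.275 CPM that 3 counts per WT library allow. That limit covers counting error only, not the spread between libraries.

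Across the 16 libraries, H2-Aa, H2-Ab1, H2-Eb1 and Cd74 varied together. Spearman's rho was 0.711 to 0.905 over their 6 pairs, with a median of 0.802. H2-DMa was less like them, with rho of 0.352 to 0.536 over 4 pairs. These are descriptions over 16 libraries, of which each pair shares a treatment and genotype. The genes whose log2 CPM was most like the mean of those 4 genes were Vwf (rho 0.892, 0 to 3.96 CPM), Eif3h (0.885, 136 to 347 CPM), Nop53 (0.879), Cep85 (0.871) and Eef1a1 (0.871, 2060 to 6037 CPM), 16 libraries each. The B cell gene Ighd ranked 8 (0.863), Igkc 32 (0.809) and Ms4a1 51 (0.779) of 14979 genes, the 3 highest of the 14 listed B cell genes tested. The lowest of those 14 were Cr2 (0.206, rank 4494), Pax5 (0.154, rank 5337) and Blk (-0.47, rank 13837). Ighd, Cr2, Pax5 and Blk are named outside the rule for naming genes.

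Since B cells and myeloid cells carry far more class II than ILC2s, their markers were read in the same libraries. Summed over H2-Aa, H2-Ab1, H2-Eb1 and Cd74, the level was 45.8 and 58.2 CPM in WT IL-7, 12 and 42.1 in Pac1-/- IL-7, 66.9 and 94.4 in WT IL-33, and 87.2 and 210 in Pac1-/- IL-33. With CGRP it was 184 and 280 CPM in WT and 961 and 811 in Pac1-/-, and with NMU 111 and 129 in WT and 5.5 and 21 in Pac1-/-. The summed level of the 15 B cell genes, led by Igkc, Ighm and Cd79b, was 133 to 176 CPM in WT IL-7, 81.9 to 87.3 in Pac1-/- IL-7, 80.5 to 94.5 in WT IL-33 and 121 to 184 in Pac1-/- IL-33. With CGRP it was 478 to 651 CPM in WT and 1340 to 1614 in Pac1-/-, and with NMU 62.4 to 102 in WT and 17.7 to 39.8 in Pac1-/-. The highest and the lowest group of the class II genes were thus also the highest and the lowest group of this B cell sum. Without Igkc, Ighm, Ighd and Cd79b, the 11 other B cell genes were again highest in Pac1-/- CGRP, at 157.5 to 163.1 CPM. Their lowest mean was in WT IL-33, at 0.392 CPM, against 1.4 CPM in Pac1-/- NMU. Of the 15 B cell genes, 13 were above 0 in each Pac1-/- CGRP library and 6 to 13 in WT CGRP, 5 in each Pac1-/- NMU library and 7 to 9 in WT NMU, 9 to 13 in Pac1-/- IL-33 and 4 to 5 in WT IL-33, and 7 in Pac1-/- IL-7 and 8 to 10 in WT IL-7. Per the study's methods, most T, B, myeloid, NK and erythroid cells were removed with magnetic beads before ILC2s were sorted from lung. The part of B cell RNA in the class II values was not tested.

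**Figure D2:**
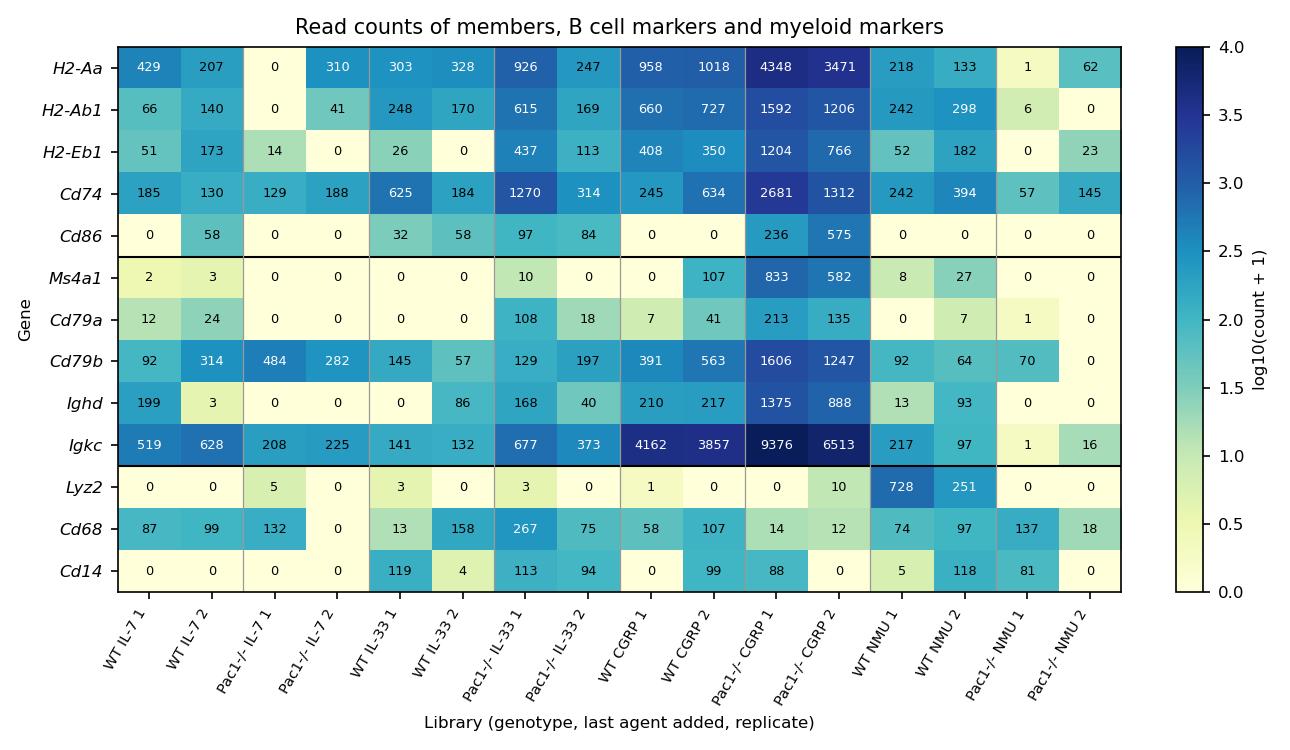
Read counts, printed in each cell and coloured as log10(count + 1), of 5 of the genes (top), 5 B cell markers (middle) and 3 myeloid markers (bottom) by row and of the 16 libraries by column. Ms4a1 and Igkc are highest in the 2 Pac1-/- CGRP libraries, at 833 and 582 and at 9376 and 6513 counts. H2-Aa has 303 and 328 counts in the WT IL-33 libraries, where Ms4a1 and Cd79a are at 0. In those WT IL-33 libraries Cd79b has 145 and 57 and Igkc 141 and 132 counts.

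Single B cell markers did not move in step with the class II chains in every library. Ms4a1, which encodes CD20, had 833 and 582 counts in Pac1-/- CGRP, 0 and 107 in WT CGRP, and at most 27 in any other library. The first WT CGRP library, with Ms4a1 at 0, had 958 counts of H2-Aa. Cd79a, of the B cell receptor complex, was looked at after its values were seen. Ms4a1 and Cd79a were at 0 in both WT IL-33 libraries and in the second Pac1-/- IL-7 library, where H2-Aa had 303, 328 and 310 counts. These markers were also at 0 in the second Pac1-/- NMU library, with 62 counts of H2-Aa, and in the first Pac1-/- IL-7 library, with none. Cd79b, at 35.4 CPM on average, was above 0 in 15 of 16 libraries, including 145 and 57 counts in WT IL-33. Igkc was above 0 in every library, 141 and 132 counts in WT IL-33 and 4162 and 3857 in WT CGRP. Ighm had 735 and 685 counts in WT IL-33. In the second Pac1-/- IL-7 library Ighm had 413, Cd79b 282 and Igkc 225 counts. In the first, which had no H2-Aa count, Cd79b had 484, Ighm 246 and Igkc 208 counts.

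The 17 macrophage and monocyte genes, led by Lyz2, Cd68 and Cd14, summed to 4.68 to 16.3 CPM in the Pac1-/- CGRP libraries and to 22 to 29.3 CPM in WT CGRP. They were highest in WT NMU, at 119 and 61.2 CPM, where Lyz2, a lysozyme gene, had 728 and 251 counts. Pac1-/- NMU had 3.74 to 21.5 CPM with Lyz2 at 0. In the WT IL-7, Pac1-/- IL-7, WT IL-33 and Pac1-/- IL-33 groups the sum was 13.4 to 25 CPM. Without Cd68, Cd14 and Ly6c2 the order with CGRP was the opposite, at 3.24 to 6.36 CPM in Pac1-/- and 0.162 to 1.54 in WT. Ly6c2 is named outside the rule for naming genes. From 2 to 6 of the 17 genes were above 0 in a library, and C1qa, C1qb and Fcgr1 were at 0 in all 16. The 11 dendritic cell genes, led by Xcr1, Irf8 and Ccr7, summed to 45.6 to 271 CPM over all libraries and to 53.3 and 56.7 CPM in Pac1-/- CGRP. Xcr1 was above 0 in all 16 libraries, at 17 to 199 CPM, and Zbtb46 in 14 of 16, up to 19.5 CPM, while Flt3 and Clec9a had at most 7 counts and 1 count in any library. Zbtb46, Flt3 and Clec9a were looked at after their values were seen. Without Xcr1, Irf8, Zbtb46 and Ccr7 the dendritic cell sum was 0 and 11 CPM in WT IL-7 and at most 1.94 CPM elsewhere. The full sum therefore rested mainly on those genes. As a description over the 16 libraries, in which both sums are scaled to the same totals, the summed class II level had a Spearman's rho of 0.759 with the B cell sum, 0.526 with that sum without Igkc, Ighm and Ighd, 0.371 with the myeloid sum, -0.188 with the dendritic cell sum and -0.103 with the ILC2 sum. The 10 epithelial genes were also highest in WT NMU, at 221 to 318 CPM, against 33.2 to 55.8 CPM in Pac1-/- NMU. Among them, Sftpc had 1160 and 849 counts in WT NMU and 2 and 0 in Pac1-/- NMU. With CGRP their sum was 19.5 to 23.8 CPM in WT and 11.45 to 13.44 in Pac1-/-. Over the 16 libraries its rho with the summed class II level was -0.132. The part of myeloid or epithelial RNA in the WT NMU values was not tested.

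**Figure D3:**
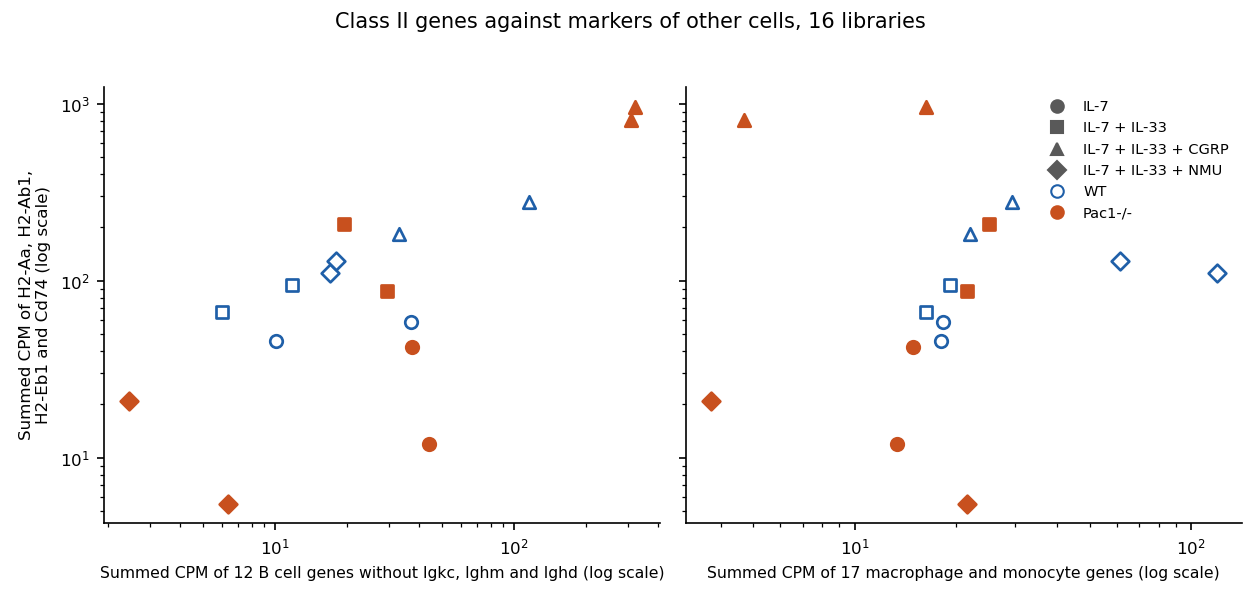
Summed CPM of H2-Aa, H2-Ab1, H2-Eb1 and Cd74 (vertical, log scale) against the summed CPM of the B cell genes other than Igkc, Ighm and Ighd (left) and of 17 macrophage and monocyte genes (right), both on log scales, 1 point per library with shape for treatment and fill for genotype. The 2 Pac1-/- CGRP libraries stand at the top of both panels, at 961 and 811 CPM, to the right for B cell genes and at 4.68 and 16.3 CPM for myeloid genes.

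The differences were tested with edgeR's quasi-likelihood test in 1 fit of all 16 libraries, over 14979 genes that passed a filter on low counts, with a gene called where the adjusted p (Benjamini-Hochberg) was under 0.05 and the fold over 1.5. Cd80 did not pass the filter, so 8 of the 9 genes were tested. No fold is given for a gene with a group at 0.

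CGRP added to IL-33 addresses how this neuropeptide changes activated ILC2s. H2-Aa, H2-Ab1 and H2-Eb1 were higher in all 4 CGRP libraries than in all 4 IL-33 libraries, 3 of the 8 genes against 4.29% of all genes tested. The log2 fold change over both genotypes was 2.72 ± 1.01 (SE) for H2-Aa, 2.33 ± 0.81 for H2-Ab1, 3.96 ± 1.22 for H2-Eb1, 1.33 ± 0.48 for Cd74 and 0.17 ± 1.65 for H2-DMa. None of the 8 was called by edgeR, against 2.76% of all genes (413 of 14979, 247 higher and 166 lower), and 5 had an unadjusted p under 0.05, against 16.7% of all genes. The adjusted p was 0.114 for H2-Eb1, 0.167 for H2-Ab1, 0.18 for Cd74 and 0.2 for H2-Aa, in edgeR. DESeq2 called 3, H2-Ab1, H2-Eb1 and Cd74, against 8.61% of genes. Without the filter on low counts edgeR called H2-Aa, H2-Ab1, H2-Eb1 and Ciita, against 2.63% of 32114 genes, and with only the 8 CGRP and IL-33 libraries in the fit it called H2-Aa and H2-Ab1, against 1.51%. The B cell genes Igkc, an immunoglobulin light chain, and Ms4a1 rose in the same comparison, Igkc with a log2 fold change of 4.88 and an adjusted p of 9.08e-05, and Ms4a1, which has groups at 0, with an adjusted p of 0.0434. Of 15 listed B cell genes 14 were tested, and Igkc and Ms4a1 were the 2 called, against the 2.76% above. Of those 14, 9 had an unadjusted p under 0.05 in edgeR, against the 16.7% above. Their median log2 fold change was 4.385, against -0.091 over all genes.

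In WT libraries alone, taken from the same fit, the CGRP response was 1.83 ± 1.39 for H2-Aa, 1.96 ± 1.14 for H2-Ab1, 5.22 ± 1.84 for H2-Eb1 and 0.49 ± 0.66 for Cd74 on the log2 scale. In Pac1-/- it was 3.61 ± 1.48 for H2-Aa, 2.70 ± 1.16 for H2-Ab1, 2.70 ± 1.62 for H2-Eb1 and 2.17 ± 0.69 for Cd74. The direction of these 4 genes was the same in both genotypes. The test of the difference between the 2 responses called none of the 8 genes and 0% of all genes by edgeR, with 1 of the 8 and 905 of 14979 genes at an unadjusted p under 0.05 and adjusted p-values of 0.788 to 1 for the 8. DESeq2 called 120 genes and none of the 8, and edgeR without the filter called Cd86, against 0.218% of genes.

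IL-33 added to IL-7 is the activation step. The log2 fold change was 1.66 ± 0.48 for Cd74 and 2.47 ± 0.83 for H2-Ab1, and 0.89 ± 0.96 for H2-Aa, 0.77 ± 1.14 for H2-Eb1 and 2.48 ± 1.75 for H2-DMa. By edgeR none of the 8 was called, against 0.0334% of genes (5 of 14979), and 3 had an unadjusted p under 0.05, against 9.88% of all genes, with an adjusted p of 0.344 for Cd74 and 0.394 for H2-Ab1. DESeq2 called these 2, against 2% of genes, and edgeR without the filter also called them, against 0.62%. H2-Eb1 went in opposite directions in the genotypes, with -3.26 ± 1.70 in WT and 4.80 ± 1.83 in Pac1-/-. The test of that difference had an adjusted p of 0.93 for H2-Eb1, and it called 0% of genes by edgeR, none of the 8 genes among them, with 2 of the 8 and 726 genes at an unadjusted p under 0.05 and 16 genes called by DESeq2. Without the filter edgeR called H2-Eb1 here, against 0.0654% of genes.

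NMU added to IL-33 is the second neuropeptide comparison. Cd86 was lower in all 4 NMU libraries, at 0, than in all 4 IL-33 libraries, at 32 to 97 counts, the only 1 of the 8 genes without overlap, against 2.9% of genes. Its adjusted p was 0.235. The log2 fold change over both genotypes was -2.70 ± 0.89 for H2-Ab1, -1.93 ± 1.005 for H2-Aa, -1.04 ± 0.47 for Cd74, -0.10 ± 1.13 for H2-Eb1 and -0.84 ± 1.66 for H2-DMa. No gene of the 8 was called by edgeR, against 0.187% of genes (28 of 14979), 3 had an unadjusted p under 0.05, against 6.5% of all genes, and the adjusted p of H2-Ab1 was 0.494. DESeq2 called H2-Ab1, against 1.44%, and edgeR without the filter called H2-Aa, H2-Ab1 and Cd86, against 0.361%.

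Within each genotype the values of the NMU response were as follows. In Pac1-/- the log2 fold change was -3.67 ± 1.53 for H2-Aa, -6.38 ± 1.48 for H2-Ab1, -4.02 ± 1.75 for H2-Eb1 and -2.40 ± 0.70 for Cd74, with adjusted p-values of 0.19 to 0.677. In WT the log2 fold change was -0.20 ± 1.36, 0.99 ± 1.11, 3.82 ± 1.74 and 0.32 ± 0.66 for the same genes. Tested directly, the difference between the responses called none of the 8 and 0% of genes by edgeR, with 3 of the 8 and 813 genes at an unadjusted p under 0.05 and 24 genes called by DESeq2, none of the 8 among them. The adjusted p was 0.912 for H2-Ab1, H2-Eb1 and Cd74. Without the filter edgeR called H2-Aa, H2-Ab1 and H2-Eb1, against 0.165% of genes.

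**Figure D4:**
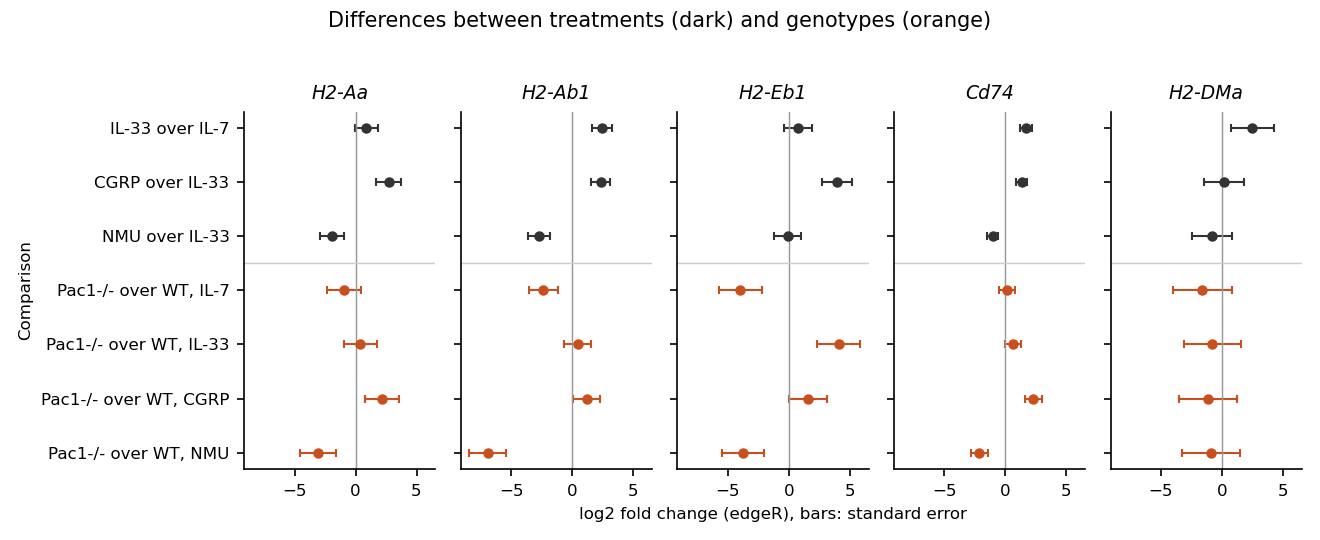
log2 fold changes (horizontal axis, points, with the standard error as a bar) of H2-Aa, H2-Ab1, H2-Eb1, Cd74 and H2-DMa in 3 treatment comparisons (dark) and in Pac1-/- over WT within each condition (orange), from edgeR. H2-Aa, H2-Ab1, H2-Eb1 and Cd74 lie right of 0 for Pac1-/- over WT with CGRP (1.20 to 2.27) and left of 0 with NMU (-6.91 to -2.13).

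The question of the study was how Pac1 deletion alters these responses, so Pac1-/- was compared with WT within each condition. With CGRP, H2-Aa, H2-Ab1, H2-Eb1, Cd74 and Cd86 were higher in both Pac1-/- libraries than in both WT libraries, 5 of the 8 genes against 19.9% of all genes. Mean CPM in Pac1-/- and WT was 421 ± 6.33 and 90.9 ± 19 for H2-Aa and 210 ± 74.2 and 42.4 ± 31.9 for Cd74 (SD, n = 2). The log2 fold change was 2.18 ± 1.40 for H2-Aa, 1.20 ± 1.11 for H2-Ab1, 1.57 ± 1.56 for H2-Eb1, 2.27 ± 0.69 for Cd74 and -1.17 ± 2.36 for H2-DMa. edgeR called none of the 8, against 0.107% of genes (16 of 14979), 2 had an unadjusted p under 0.05, against 7.8% of all genes, and the adjusted p was 0.392 for Cd74 and 0.336 for Cd86. DESeq2 called Cd74, against 2.62%, and edgeR without the filter called H2-Aa, Cd74 and Cd86, against 0.57%.

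With NMU the order was turned, and H2-Aa, H2-Ab1, H2-Eb1 and Cd74 were lower in both Pac1-/- libraries than in both WT libraries, 4 of the 8 genes against 18.2% of genes. The log2 fold change was -3.08 ± 1.501 for H2-Aa, -6.91 ± 1.51 for H2-Ab1, -3.75 ± 1.74 for H2-Eb1 and -2.13 ± 0.69 for Cd74. None of the 8 was called by edgeR, against 0.02% of genes (3 of 14979), 2 had an unadjusted p under 0.05, against 3.29% of all genes, and the adjusted p of H2-Ab1 was 0.447. DESeq2 called H2-Ab1, against 0.314%, and edgeR without the filter called H2-Aa and H2-Ab1, against 0.121%. Higher with CGRP and lower with NMU, without overlap in either, was the order of 538 of 14979 genes, or 3.59%, these 4 among them.

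The difference between the genotype effect with CGRP and that with NMU was tested after this order was seen. It was 5.25 ± 2.05 for H2-Aa, 8.10 ± 1.85 for H2-Ab1, 5.32 ± 2.32 for H2-Eb1 and 4.40 ± 0.98 for Cd74 on the log2 scale. By edgeR none of the 8 was called, against 0.0334% of genes (5 of 14979), and 4 had an unadjusted p under 0.05, against 7.08% of all genes, with adjusted p-values of 0.293 for Cd74, 0.298 for H2-Ab1 and 0.69 for H2-Aa and H2-Eb1. DESeq2 called H2-Ab1 and Cd74, against 1.14% of genes, and edgeR without the filter called all 4, against 0.371%.

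With IL-7 alone the log2 fold change of Pac1-/- over WT was -2.39 for H2-Ab1 and -3.97 for H2-Eb1. No gene of the 8 was called by edgeR, against 0.00668% of genes (1 of 14979), and 2 had an unadjusted p under 0.05, against 4.45%. With IL-33 it was 4.09 for H2-Eb1 with an unadjusted p of 0.0366, none of the 8 was called by edgeR, against 0.00668% of genes, and 1 had an unadjusted p under 0.05, against 3.69%. In these 2 conditions DESeq2 called 63 and 27 genes and none of the 8, and edgeR without the filter called H2-Eb1 with IL-33, against 0.081% of genes. Over all 4 conditions H2-Ab1 had a log2 fold change of -1.91 ± 0.60 in Pac1-/-, with an adjusted p of 0.563. edgeR called none of the 8, against 0.113% of genes (17 of 14979), with 1 at an unadjusted p under 0.05, against 6.77%. DESeq2 and edgeR without the filter each called H2-Ab1, against 0.895% and 0.364% of genes.

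Beyond the 9 genes, 22 further genes of the class II pathway were read, from the H2-O and second H2-DM genes to lysosomal proteases and the factors that bind the X and Y boxes. Cst3 (293 to 571 CPM), a cathepsin inhibitor, Nfyb (78 to 200 CPM), a Y box binding subunit, and Sppl2a (33.2 to 174 CPM), the protease that clears the last CD74 stub, had the highest mean CPM of the list, a value that is not corrected for length. None of the 22 was called by edgeR in any of the 8 treatment and genotype comparisons, while 6 had an unadjusted p under 0.05 for Pac1-/- over WT with CGRP, against 7.8% of all genes, and 3 for CGRP over IL-33, against 16.7%. Their median log2 fold change was 0.759 in the former, against 0.064 over all genes, and -0.033 in the latter, against -0.091. H2-Ob, H2-DMb2 and H2-Eb2, looked at after their values were seen, were at 0 in both WT CGRP libraries and had 116 and 453, 119 and 277, and 71 and 25 counts in Pac1-/- CGRP. Their Pac1-/- means were at least 119-fold, 81.6-fold and 18.1-fold higher than 3 counts per WT library allow, a limit for counting error only. H2-Ob and its partner H2-Oa form the inhibitor of H2-DM, which is known from B cells, and the values of H2-Oa were 0 and 175 in WT CGRP and 157 and 100 in Pac1-/- CGRP.

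The genes of interferon-γ and TGF-β signalling that govern Ciita were 11, of which 10 were tested. Ifngr1 (264 to 2011 CPM), Jak1 (202 to 908 CPM) and Jak2 (149 to 477 CPM) had the highest mean CPM. None of the 10 was called by edgeR in the 8 comparisons. For CGRP over IL-33, 4 had an unadjusted p under 0.05, against 16.7% of all genes. Their median log2 fold change there was -0.434, against -0.091 over all genes. In the class I pathway, B2m (8758 to 25520 CPM), H2-K1 and H2-D1 had the highest mean CPM of 14 genes. Of these 14, Tapbp, which encodes tapasin, and Psmb8, an immunoproteasome subunit, fell with CGRP against IL-33, where 2.76% of all genes were called, with a log2 fold change of -1.45 ± 0.28 and an adjusted p of 0.0132, and of -0.89 ± 0.21 and 0.039, in edgeR. The median of the 14 was -0.777 there against -0.091 over all genes. B2m had 15150 and 22470 CPM in the WT and 12730 and 8758 CPM in the Pac1-/- IL-33 libraries, overlapping the 16930 and 17290 CPM in WT and 12890 and 13830 CPM in Pac1-/- with CGRP. Of 10 other co-stimulatory ligands, Cd48 (52 to 231 CPM), Tnfsf4 (6.25 to 225 CPM), which encodes OX40L, and Pdcd1lg2 (58.9 to 134 CPM), which encodes PD-L2, had the highest mean CPM. None of the 9 tested was called by edgeR in the 8 comparisons, with 0 to 2 at an unadjusted p under 0.05 in each, against 3.29% to 16.7% of all genes.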

How the data were processed

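Raw read counts per gene of 16 libraries were analysed as deposited. The authors made these counts from paired-end reads of amplified full-length cDNA aligned to mm10 with HISAT2. The counting tool, annotation and strand setting are not given in the sources used here. Amplified reads carry no molecular identifiers, so limits from counts cover counting error only. Groups were taken from the sample labels. Of the gene IDs, 99.5% had a symbol in GENCODE M21. The 9 genes and all gene lists were chosen with earlier results of these data known. All 9 are named, and from each other list (class II pathway, Ciita induction, class I pathway, co-stimulatory ligands and 9 sets of cell type markers) the 3 genes with the highest mean CPM, those called and those at 0 in every library, plus the 5 genes most like the mean of H2-Aa, H2-Ab1, H2-Eb1 and Cd74 by Spearman's rho. Exceptions are named where they occur. CPM was computed from library totals, and CPM per kb from the union of exons.

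Differences were tested with edgeR 4.0.16 (R 4.3.3), with trimmed mean of M values (TMM) scaling, filterByExpr by group, 1 mean per group of genotype and treatment, and the quasi-likelihood test. A call needs a Benjamini-Hochberg adjusted p under 0.05 over 14979 genes and a fold over 1.5. The common biological coefficient of variation was 0.985. The fit was tested on simulated data with known changes. Alternatives were relative log expression (RLE) size factors, no filter, a filter of at least 10 counts in at least 2 libraries, only the libraries compared, a replicate block, each library left out in turn and DESeq2 1.42.0. Tests of differences between responses, fits of 1 genotype, fits without the CGRP or NMU libraries and an additive model were chosen after the data were seen.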

Additional observations from a re-analysis of the deposited data

Results flagged for a closer look

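For H2-Aa, H2-Ab1, H2-Eb1 and Cd74, the Pac1-/- libraries moved one way with CGRP and the other way with NMU, with both libraries of a genotype on the same side each time. This order was that of 538 of 14979 genes, or 3.59%. The test of it was made after the order was seen on these genes, so it restates that order and is no independent support. The difference between the genotype effect with CGRP and that with NMU was 5.25 on the log2 scale for H2-Aa, 8.1 for H2-Ab1, 5.32 for H2-Eb1 and 4.4 for Cd74. None passed the adjusted p in edgeR (0.293 to 0.69), and DESeq2 called H2-Ab1 and Cd74, with adjusted p-values of 6.19e-05 and 0.00107, against 1.14% of all genes called. The summed B cell markers moved in the same order, 478 to 651 CPM in WT and 1340 to 1614 in Pac1-/- with CGRP and 62.4 to 102 in WT and 17.7 to 39.8 in Pac1-/- with NMU. With NMU the macrophage and monocyte sum was also lower in Pac1-/- (3.74 to 21.5 CPM, 61.2 to 119 in WT). So was the epithelial sum (33.2 to 55.8 CPM, 221 to 318 in WT). With CGRP these 2 full sums did not turn and were lower in Pac1-/- too, at 4.68 to 16.3 against 22 to 29.3 CPM and at 11.45 to 13.44 against 19.5 to 23.8 CPM. Without Cd68, Cd14 and Ly6c2 the macrophage and monocyte sum did turn. It was 3.24 to 6.36 CPM in Pac1-/- and 0.162 to 1.54 in WT with CGRP. With NMU it was 2.1 to 2.75 CPM in Pac1-/- and 33.5 to 107.6 in WT. Of the epithelial sum with CGRP, Epcam alone made up 22.6 and 11 CPM in WT and 10.8 and 5.4 in Pac1-/-. The part of these markers in the difference was not tested.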

How the results depend on the processing

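Of 935 values of single genes under alternatives, 878 kept their direction and side of the threshold, 28 passed it only under the alternative and 29 changed sign. No value was called at the start, so none could lose a call. The counts of genes called changed more. In the order genotype over all conditions, genotype with IL-7, with IL-33, with CGRP and with NMU, IL-33 over IL-7, CGRP over IL-33 and NMU over IL-33, the counts were 17, 1, 1, 16, 3, 5, 413 and 28 in edgeR, 117, 21, 26, 183, 39, 199, 845 and 116 without the filter, and 134, 63, 27, 393, 47, 299, 1290 and 216 by DESeq2. With only the libraries compared, they were 0 for genotype with CGRP, 10 for IL-33 over IL-7, 199 for CGRP and 14 for NMU over IL-33, and RLE factors gave 5 for genotype with NMU. Without the CGRP libraries 6 and without the NMU libraries 5 genes were called for genotype over all conditions. In WT and in Pac1-/- libraries alone the counts were 0 and 0 for IL-33 over IL-7, 18 and 55 for CGRP and 0 and 7 for NMU over IL-33, and the additive model gave 2 for IL-33 over IL-7. The cause was not tested.

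The replicate numbers did not pair the libraries: over 28 pairs of groups the correlation of same-numbered deviations was -0.0641 to 0.039. The replicate block gave 10 genes for genotype with CGRP and 2 for IL-33 over IL-7, turned H2-DMa for CGRP over IL-33 to -0.05 and changed no call of the 8 genes tested.

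Leaving out each library in turn gave 4 to 38 genes for genotype over all conditions (38 without the first Pac1-/- CGRP library), 1 to 2 with IL-7, 6 to 85 with CGRP (85 without the second WT CGRP library), 0 to 4 with NMU (0 without the first Pac1-/- NMU library), 2 to 8 for IL-33 over IL-7, 130 to 489 for CGRP (130 without the first WT IL-33 library) and 8 to 28 for NMU over IL-33 (8 without the first WT NMU library). Among log2 fold changes that changed sign, the range was, for genotype over all conditions, H2-Eb1 -2.15 to 1.1, Cd74 -0.02 to 0.48 and H2-DMa -3.2 to 0.85. With IL-7 it was H2-Aa -11.04 to 0.04, Cd74 -0.11 to 0.3 and H2-DMa -7.91 to 6.3. With IL-33 it was H2-Aa -0.46 to 0.93, H2-Ab1 -0.36 to 0.98, Cd74 -0.34 to 1.41 and H2-DMa -1.9 to 1.65, and with NMU H2-DMa -9.21 to 0.04. It was H2-Eb1 -2.46 to 3.65 for IL-33 over IL-7, H2-DMa -1.35 to 1.38 for CGRP over IL-33, and H2-Eb1 -3.37 to 3.13 and H2-DMa -4.98 to 0.38 for NMU over IL-33. Among the other values, which kept their sign, several moved by over 1.5 times without 1 library, as in these examples. With NMU, H2-Aa and H2-Eb1 for genotype went to -7.84 and -10.32 without the second Pac1-/- library and H2-Ab1 to -11.62 without the first. Without the same libraries, H2-Aa and H2-Ab1 for NMU over IL-33 went to -4.32 and -5.05. H2-Eb1 went to 10.55 for genotype with IL-33 and to 7.19 for CGRP over IL-33 without the first WT IL-33 library, and Cd74 to 0.8 for CGRP over IL-33 without the second WT CGRP library. Without the second Pac1-/- IL-7 library, H2-Aa and H2-Ab1 for IL-33 over IL-7 went to 5.94 and 6.06 and H2-Ab1 for genotype with IL-7 to -9.57, and without the first, H2-Eb1 for genotype with IL-7 to -9.74. Cd74 for NMU over IL-33 went to -0.57 without the first Pac1-/- IL-33 library, and H2-DMa to 6.44 for IL-33 over IL-7 without the second WT IL-7 library and to -4.2 for genotype with CGRP without the first Pac1-/- CGRP library. Leaving out either Pac1-/- IL-7 library brought H2-Aa (2.72) and H2-Ab1 (2.33) past the threshold for CGRP over IL-33.

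Signs also changed for genotype over all conditions in H2-Aa (0.55) and H2-Eb1 (0.57) without the NMU libraries and in Cd74 (-0.48) without the CGRP libraries. In WT alone they changed for H2-Eb1 with IL-33 over IL-7 (-3.28) and for H2-Ab1 (1.0), H2-Eb1 (3.84) and Cd74 (0.33) with NMU over IL-33, and in Pac1-/- alone for H2-DMa with CGRP over IL-33 (-0.02). With 2 libraries a group and a count of 0 beside 310 in 1 group, differences of several fold could not be told from the spread for these genes, and depth allows 0.188 to 0.443 CPM behind each 0.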

Other observations

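The rest of the marker lists gave few calls in edgeR. Epcam, an epithelial adhesion molecule and 1 of 10 epithelial genes, fell with CGRP over IL-33 (log2 fold change -2.41, adjusted p 0.0132). Of the 14 ILC2 genes, Ly6a (-0.96), Klrg1 (-1.10) and Il13 (-1.77) fell and Areg (2.06) rose with CGRP over IL-33, while Il13 (2.78) and Il5 (1.61) rose and Il7r (-0.997) fell with NMU over IL-33. Over all genes, 2.76% were called for CGRP and 0.187% for NMU over IL-33. These were the calls in the epithelial and ILC2 lists over the 8 treatment and genotype comparisons, and the 2 B cell calls are given with CGRP. The 3 genes with the highest mean CPM were Klrb1c, Eomes and Ncr1 in the NK cell and ILC1 list, with Tbx21 at 0 in all libraries, Cpa3, Fcer1a and Epx in the granulocyte and mast cell list, with S100a8 at 0, Pecam1, Cdh5 and Cldn5 in the endothelial list, Trbc2, Trbc1 and Cd3g in the T cell list, with Cd8a at 0, and Epcam, Sftpc and Scgb1a1 in the epithelial list, with Sftpb at 0. Trbc2 ran from 212 to 648 CPM and Cd3g from 37.9 to 250 CPM, and the T cell sum had a Spearman's rho of -0.768 with the summed class II level over 16 libraries. Other genes of that list were lower, with a mean CPM of 28.5 for Cd3d, 4.05 for Trac, 1.71 for Cd3e, 0.89 for Cd8b1 and 0.0306 for Cd4. They are named outside the rule for naming genes.

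The ratio of Cd74 to H2-Aa per kilobase ran from 0.579 to 6.7 over the 14 libraries with at least 10 counts of each, with a median of 1.41. Among the ILC2 genes, Il17rb (rho 0.625) and Areg (0.576) were most like the mean of H2-Aa, H2-Ab1, H2-Eb1 and Cd74 and Ly6a (-0.803) least like it, as a description over 16 libraries.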
